A study of Homo sapiens with 12 samples.

Results

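The genes described here are 39 genes of the G1/S transition and of DNA replication, chosen by symbol from a list of 39. That list was chosen with earlier results of these data known. Its shares, set beside those of all genes, are therefore descriptions and not tests. All 39 had exactly 1 row in a count table of 45372 genes, and all 39 were among the 12878 genes with enough counts to be tested. They were measured in HaCaT, an immortalized line of human keratinocytes, the main cells of the epidermis. The cells were wild-type. They were irradiated with blue light of 408 nm, in buffered saline, at 50 J/cm2 and 4.6 mW/cm2 per session. The submitters chose that dose for about 50% cell death. A week held 3 sessions, over a course of at most 14 weeks, and cells were collected after 3, 14 or 42 irradiations (blue 3, blue 14 and blue 42). For each number there was a dark control that received no blue light (dark 3, dark 14 and dark 42). Whether the dark cells were also kept in saline during the sessions is not stated in the labels, so light and saline cannot be told apart in a comparison of blue with dark. Each of the 6 groups had 2 libraries, a and b. The labels do not say that a and b came from separate cultures, so every p-value below rests on library-to-library spread that may be technical only. A single cell line limits these groups as a model of skin. A later number of irradiations is also a longer time in culture, and within the dark or the blue series these cannot be told apart.

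A cell that leaves G1 raises the cyclin E kinase and frees the E2F transcription factors, which switch on a shared set of replication genes. Origins are first licensed: the origin recognition complex (ORC), CDC6 and CDT1 load the ring-shaped MCM2-7 helicase onto DNA. CDC45, the GINS complex and MCM10 then turn that ring into a working helicase, polymerases copy the strands held by the PCNA clamp, and nucleotide enzymes supply the building blocks. In a keratinocyte culture the mRNAs of these genes are usual markers of proliferating cells. In bulk RNA, fewer cells in S phase and less of these mRNAs per cell cannot be told apart.

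Promoter sequences of some of these genes are shown first because E2F is the factor they are known to share. RefSeq windows on GRCh38.p14, from 250 bases before to 50 bases after the annotated start, were available for 36 of the 39 genes, the exceptions being CCNE2, MCM4 and MCM5. The 4 octamers TTTGGCGC, TTTCGCGC, TTTCCCGC and TTTGCCGC were searched on both strands. At least 1 was found in 18 of the 36 windows (50%), against 908 of 27303 windows of all genes (3.33%). The CCAAT pentamer was found in 21 of 36 (58.3%, against 35.7% of all genes). TTTGAA, the core of an element known from G2/M genes, was found in 1 of 36 (2.78%, against 15.4%). A match is a description of the letters, not a binding site. Only these 4 octamers were searched, so a window without a match may hold another form of E2F site. CDC6, MCM7 and RFC3 are shown because they fell in both series at 14 irradiations and had a match, and MCM6 because it had the most matches. RRM2 is shown as a gene that fell in both series with none of these octamers in its window. MCM10, RRM1 and CHAF1A also fell in both series with none in their windows and are not shown. Capitals mark the E2F octamers, and each line reads 5′ to 3′ on the gene's own strand. The windows are chr17:40287629-40287928 (plus strand, CDC6), chr7:100101348-100101647 (minus, MCM7), chr13:33817899-33818198 (plus, RFC3), chr2:135876394-135876693 (minus, MCM6) and chr2:10122489-10122788 (plus, RRM2).
CDC6: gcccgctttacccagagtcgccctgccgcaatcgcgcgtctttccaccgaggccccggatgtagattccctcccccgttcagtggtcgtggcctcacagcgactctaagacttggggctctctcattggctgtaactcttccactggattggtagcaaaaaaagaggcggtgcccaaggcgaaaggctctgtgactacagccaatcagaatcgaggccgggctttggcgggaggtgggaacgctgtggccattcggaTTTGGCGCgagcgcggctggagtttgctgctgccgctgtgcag
MCM7: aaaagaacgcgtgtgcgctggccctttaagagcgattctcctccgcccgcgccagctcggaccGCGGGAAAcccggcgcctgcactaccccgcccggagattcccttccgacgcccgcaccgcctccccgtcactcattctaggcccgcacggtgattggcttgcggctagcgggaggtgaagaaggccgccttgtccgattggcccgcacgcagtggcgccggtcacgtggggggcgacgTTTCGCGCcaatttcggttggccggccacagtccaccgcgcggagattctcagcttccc
RFC3: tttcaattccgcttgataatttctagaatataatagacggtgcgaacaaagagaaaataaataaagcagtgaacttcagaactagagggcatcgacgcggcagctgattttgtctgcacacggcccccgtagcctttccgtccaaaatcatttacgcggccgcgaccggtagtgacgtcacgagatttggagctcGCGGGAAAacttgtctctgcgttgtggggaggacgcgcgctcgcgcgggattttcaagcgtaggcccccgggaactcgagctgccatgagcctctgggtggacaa
MCM6: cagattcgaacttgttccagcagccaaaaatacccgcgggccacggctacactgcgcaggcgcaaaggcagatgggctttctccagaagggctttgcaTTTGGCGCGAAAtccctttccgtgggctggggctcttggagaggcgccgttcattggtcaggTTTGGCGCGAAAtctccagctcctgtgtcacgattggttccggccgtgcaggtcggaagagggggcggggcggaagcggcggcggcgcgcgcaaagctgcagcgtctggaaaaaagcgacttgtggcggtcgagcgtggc
RRM2: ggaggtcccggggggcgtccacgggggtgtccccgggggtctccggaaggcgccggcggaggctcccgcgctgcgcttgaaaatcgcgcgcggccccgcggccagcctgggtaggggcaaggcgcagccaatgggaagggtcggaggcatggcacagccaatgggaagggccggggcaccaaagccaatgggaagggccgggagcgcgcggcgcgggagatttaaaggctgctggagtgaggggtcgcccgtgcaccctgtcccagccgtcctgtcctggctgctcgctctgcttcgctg
CDC6 and RFC3 each had 1 match, MCM7 had 2, and MCM6 had 4, in 2 overlapping pairs.

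The libraries held 2073160 to 8183941 counts. The 14-irradiation groups included the 3 shallowest: blue 14 b (2073160), blue 14 a (3517401) and dark 14 a (3561392), while dark 14 b held 7950222. Of the 39 genes, 37 had at least 10 counts in all 12 libraries; the others were POLD1, down to 4 counts, and CCNE1, down to 8, both in blue 14 b. Markers of keratinocytes summed to between 3520 and 5760 counts per 1000000 counts (CPM) in every library, with all 8 of 8 detected. They were lowest in dark 42 (3520 to 3860) and blue 42 (4380 to 4690), against 5050 to 5150 in dark 3 and 5120 to 5620 in blue 3. Markers of other cell types were low: fibroblast genes summed to 4.28 to 4.9 CPM in dark 3, 8.08 to 9.07 in blue 3 and at most 15.2 in any library (dark 14), leukocyte genes to 1.11 to 4.34 with CD3D at 0, endothelial genes to 0.634 to 6.21, and melanocyte genes to 10.3 to 16.3 with MLANA and TYR at 0. Neuronal genes, all 8 detected, summed to 27.9 to 31 CPM in dark 3, 57.4 to 74.6 in blue 3, 80.1 to 92.5 in dark 14, 44.4 to 46 in blue 14, and 20.7 to 29.1 in the 42-irradiation libraries.

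Each library counted about 1 read per transcript, at its 3′ end, so no length correction was made to levels in CPM. Reads shared with an overlapping gene or a pseudogene could still shift the level of a gene, and this was not tested. MCM7 overlapped 4 annotated genes, and 8 pseudogenes bear the name of DUT. By mean level over the 12 libraries the genes spanned RRM1 (357 CPM), the large subunit of ribonucleotide reductase, to CCNE1 (3.57 CPM), the cyclin that drives entry into S phase. DUT, which removes dUTP from the nucleotide pool, followed RRM1 at 303 CPM, then MCM7 at 279 and MCM4 at 270. The 6 helicase subunits MCM2 to MCM7 form a ring with 1 copy of each, but their measured levels ranged from 73.5 CPM (MCM6) to 279 CPM (MCM7). UHRF1, which couples DNA methylation to replication, was near the bottom at 5.89 CPM, and POLD1, the catalytic subunit of polymerase delta, stood at 7.82 CPM. The flattest gene was RFC5, a subunit of the clamp loader, whose highest group mean was 1.09 times its lowest. PCNA, the sliding clamp, spanned 1.21 times. The widest was POLD1, at 3.13 times.

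As a group the 39 genes were highest in dark 3 and lowest at 14 irradiations. Their mean log2 level relative to dark 3 was 0.01 and -0.01 in the dark 3 libraries and -0.12 and -0.13 in blue 3. It was -0.54 (a) and -0.31 (b) in dark 14, and -0.37 (a) and -0.71 (b) in blue 14. It was -0.19 (a) and -0.39 (b) in dark 42, and -0.23 (a) and -0.46 (b) in blue 42. All 4 libraries at 14 irradiations lay below all 4 at 3 irradiations, and blue and dark overlapped at both 14 and 42. The pooled SD between libraries of a group was 0.15 on this scale. The deepest 14-irradiation library, dark 14 b, was the highest of the 4 and blue 14 b, the shallowest, the lowest. Depth moved with the level between these ends. Dark 14 a and blue 14 a, of like depth (3561392 and 3517401 counts), stood at -0.54 and -0.37. The deepest library of all, blue 42 b (8183941 counts), stood at -0.46. Dark 14 b alone, at a depth like that of the 3-irradiation libraries, stood at -0.31, which was below blue 3 by less than it was below dark 3. The part of depth in the result was not tested. Summed, the genes took 0.405% of all counts in dark 3 a and 0.268% in blue 14 b.

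**Figure D1:**
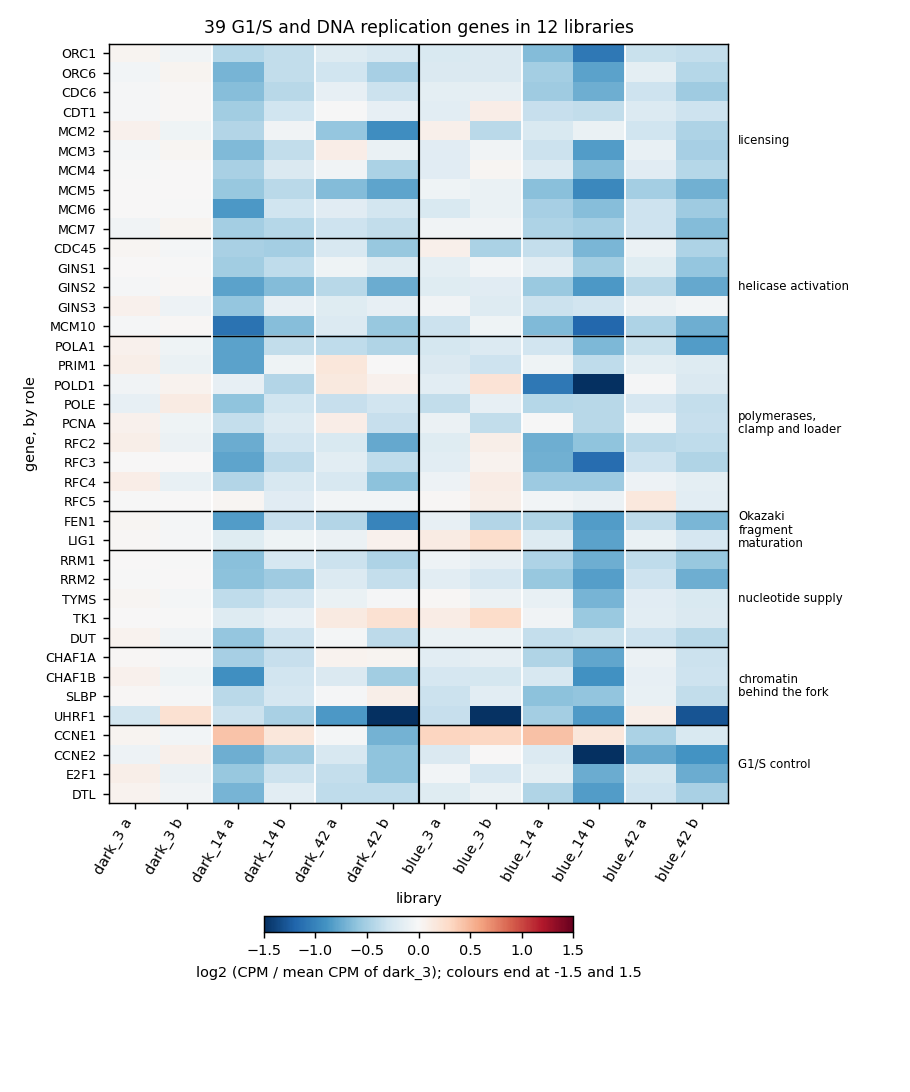
Log2 level of each of the 39 genes (rows, by role) in each of the 12 libraries (columns) relative to the gene's mean in dark 3, with colours ending at -1.5 and 1.5. Most rows are lower in the 4 columns at 14 irradiations than in the 4 columns at 3, and RFC5 stays near 0 throughout.

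**Figure D2:**
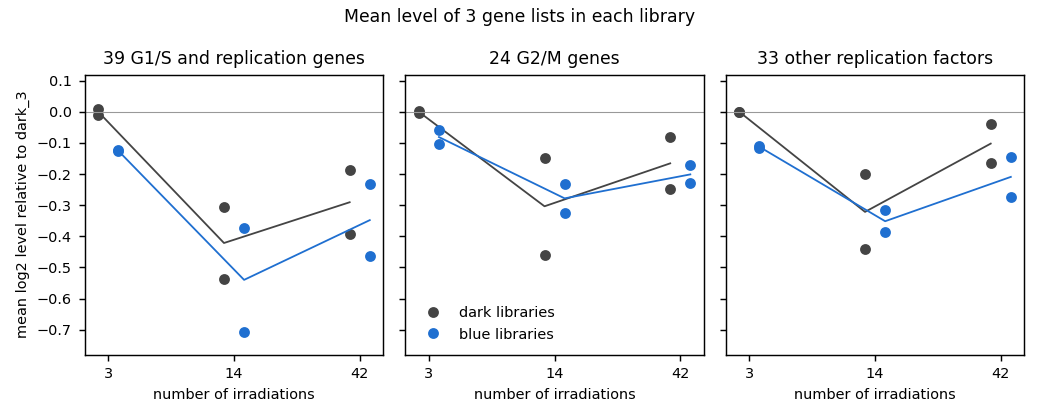
Mean log2 level relative to dark 3 of the 39 genes, of 24 G2/M genes and of 33 other replication factors, at 3, 14 and 42 irradiations (evenly spaced). Points are libraries and lines join group means; in the 39 genes dark 3 lies at 0.01 and -0.01, and blue 14 b is the lowest library at -0.71.

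The first comparison asked how the genes drifted in cells that received no blue light. Between 3 and 14 irradiations in the dark, 16 of the 39 genes fell and none rose (edgeR quasi-likelihood test, Benjamini-Hochberg adjusted p under 0.05 over all genes tested, here "called"). Over all genes 12.7% were called, and 4.61% were called lower. The point estimate was below 0 in 38 of 39 genes, with a median log2 difference of -0.43, against 0.02 over all genes. An unadjusted p under 0.05 was reached by 29 genes (74.4%, against 27.5% of all genes). In 35 of 39 genes both dark 14 libraries lay below both dark 3 libraries, which held for 30% of all genes. CCNE1 was the 1 gene above 0, at 0.27 ± 0.33 (log2 difference ± SE, adjusted p = 0.638).

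Of the 10 licensing genes 7 fell. They were MCM3, MCM5, MCM6, MCM7, CDC6, CDT1 and ORC6, with log2 differences from -0.40 (CDT1) to -0.52 (MCM6). CDC6, the loader of the helicase, measured 174 and 177 CPM in dark 3 and 113 and 132 in dark 14. MCM7 measured 330 and 352 CPM in dark 3 and 239 and 254 in dark 14. In both genes the groups were well apart, with log2 differences of -0.51 ± 0.12 (adjusted p = 0.00927) and -0.47 ± 0.12 (adjusted p = 0.012). The other 3 licensing genes did not pass: MCM2 was at -0.22 ± 0.16 (adjusted p = 0.416), MCM4 at -0.34 (adjusted p = 0.181) and ORC1 at -0.39 (adjusted p = 0.101).

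Of the genes that activate the helicase, 3 of 5 fell. GINS2 (chr16:85676198-85690073, GRCh38, minus strand), a subunit of the GINS complex, measured 66.9 and 68.4 CPM in dark 3 and 38.7 and 43.2 in dark 14. That is 1.64-fold lower, a log2 difference of -0.71 ± 0.15 (adjusted p = 0.00351). MCM10 (chr10:13161554-13211104, plus strand), needed for the helicase to start unwinding, measured 131 and 135 CPM in dark 3 and 61.6 and 85.7 in dark 14, with a wide gap between the dark 14 libraries. Its log2 difference, -0.83 ± 0.18 (adjusted p = 0.00933), was the largest fall of the 39. GINS1 fell by 0.44 (adjusted p = 0.0453), while CDC45 (-0.49, adjusted p = 0.0803) and GINS3 (-0.28, adjusted p = 0.266) did not pass.

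Among polymerases, clamp and loader 2 of 9 fell: POLA1, the polymerase that makes primers with primase, at -0.55 ± 0.16 (adjusted p = 0.0356), and RFC3 at -0.56 ± 0.14 (adjusted p = 0.0159). Among the clamp-loader subunits, whose differences from each other were not tested, RFC3 and RFC5 had the lowest and the highest estimate. RFC3 measured 121 and 121 CPM in dark 3 and 70.2 and 92.5 in dark 14, while RFC5 measured 36.5 and 36.7 and then 37.2 and 32.6. RFC5 overlapped between the groups, with an interval of its log2 difference from -0.37 to 0.20. PCNA was at -0.28 ± 0.16 (adjusted p = 0.298). The other 5 did not pass either: POLE at -0.42 (adjusted p = 0.0565), RFC2 at -0.46 (adjusted p = 0.0808), RFC4 at -0.32 (adjusted p = 0.164), POLD1 at -0.32 (adjusted p = 0.439) and PRIM1 at -0.31 (adjusted p = 0.28). Neither gene that finishes Okazaki fragments passed, with FEN1 at -0.56 ± 0.21 (adjusted p = 0.104) and LIG1 at -0.12 ± 0.14 (adjusted p = 0.648).

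Of the genes that supply nucleotides 3 of 5 fell. RRM1 measured 444 and 443 CPM in dark 3 and 287 and 372 in dark 14. RRM2, the small subunit whose level limits ribonucleotide reductase in S phase, measured 142 and 143 and then 92.8 and 98.2. Both subunits were lower in both dark 14 libraries, at -0.43 ± 0.13 (adjusted p = 0.0339) and -0.57 ± 0.13 (adjusted p = 0.00818). DUT fell by 0.44 (adjusted p = 0.0271). TYMS, which makes dTMP, was at -0.33 (adjusted p = 0.136) and TK1, which salvages thymidine, at -0.16 (adjusted p = 0.46). CHAF1A, the large subunit of the chromatin assembly factor that places histones behind the fork, fell by 0.41 (adjusted p = 0.0316). CHAF1B, its partner, was at -0.50 ± 0.21 (adjusted p = 0.127) at a mean level of 14.4 CPM, and SLBP (-0.31, adjusted p = 0.161) and UHRF1 (-0.43, adjusted p = 0.587) did not pass. None of the 4 genes that control the transition passed, with E2F1 at -0.42 ± 0.18 (adjusted p = 0.137), DTL at -0.37 (adjusted p = 0.11) and CCNE2 at -0.61 ± 0.27 (adjusted p = 0.149).

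The number called depended on single libraries. Without dark 3 a, dark 3 b or dark 14 a, 1 of the 39 genes was called each time, GINS2, which was called in all 12 fits that left out 1 library. The share of all genes called in every such fit is not given here. The median of the 39 stayed between -0.57 and -0.34 in the fits that left out 1 library.

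In the irradiated series, 12 of the 39 genes fell between 3 and 14 irradiations and none rose, against 6.22% of all genes called and 2.6% called lower. The point estimate was below 0 in 35 of 39, with a median of -0.40 (0.01 over all genes). An unadjusted p under 0.05 was reached by 21 genes (53.8%, against 22.3% of all genes). Both blue 14 libraries lay below both blue 3 libraries in 30 genes, against 25.5% of all genes. The 12 were MCM5, MCM7, MCM10, CDC6, RFC3, RFC4, POLD1, LIG1, RRM1, RRM2, TK1 and CHAF1A. RFC3, which measured 108 and 126 CPM in blue 3 and 73.3 and 54.9 in blue 14, had the smallest adjusted p (log2 difference -0.84 ± 0.15, adjusted p = 0.00396). MCM5, a helicase subunit (chr22:35400063-35425430, plus strand), measured 105 and 103 CPM in blue 3 and 71.3 and 56.3 in blue 14. Its groups did not overlap, with a log2 difference of -0.69 ± 0.13 (adjusted p = 0.00538). POLD1 had the largest difference, -1.44 ± 0.34 (adjusted p = 0.016), but from 8.08 and 10.4 CPM to 4.31 and 1.91 CPM, the last of which was 4 counts.

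The 2 series share no library, but 1 fit with a shared dispersion gave both sets of calls, so these are not fully independent. Of the genes called, 8 were called in both: MCM5, MCM7, MCM10, CDC6, RFC3, RRM1, RRM2 and CHAF1A, which is 50% of the dark calls and 66.7% of the blue calls. Over all genes 3.32% were called in both series, which is 26.1% of all dark calls and 53.4% of all blue calls. In 35 of the 39 genes (89.7%) the estimate was below 0 in both, against 32.8% of all genes. Whether the drift differed between the series was tested directly, as the blue drift minus the dark drift. None of the 39 genes was called (0.0388% of all genes; edgeR, smallest adjusted p = 0.473), 2 had an unadjusted p under 0.05 (8% of all genes), and the median difference was 0.07. DESeq2 also called 0. Those 2 were POLD1 (-1.12 ± 0.43) and LIG1 (-0.51 ± 0.21, adjusted p = 0.525), which were lower in blue 14. The 12 calls in blue rested partly on the shallowest library. Without blue 14 b 0 genes were called, without blue 3 b 1, and without dark 3 a, dark 3 b or blue 3 a 4 each, and the median ran from -0.59 to -0.27. With a fit to the blue 3 and blue 14 libraries alone 4 were called.

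**Figure D3:**
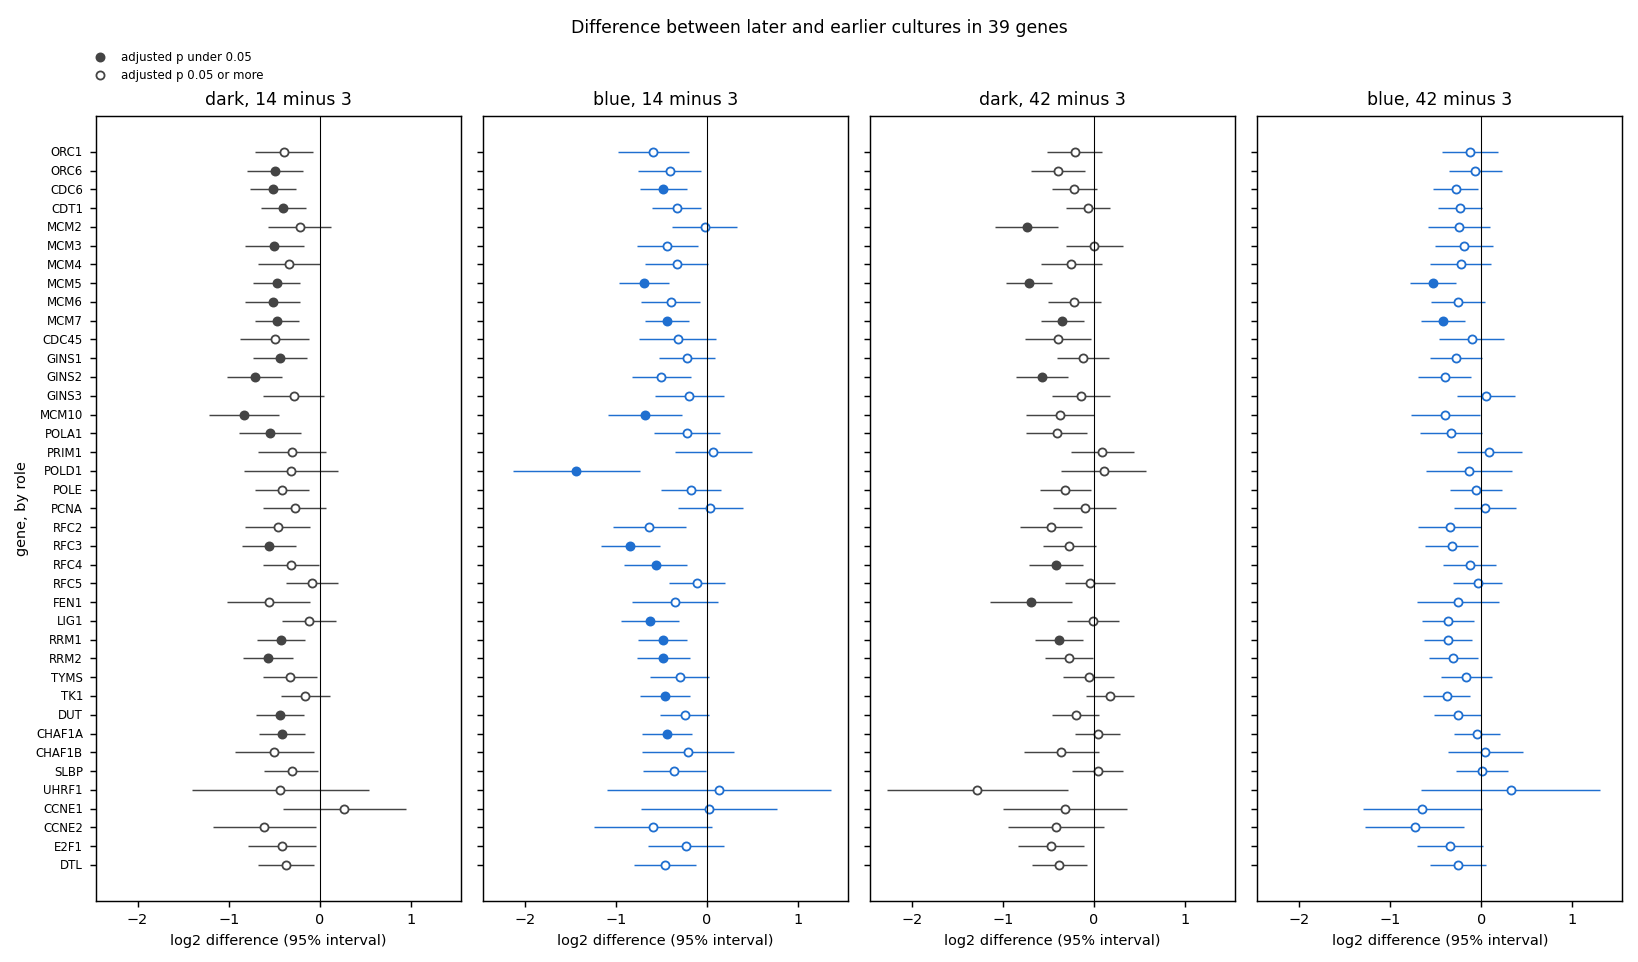
Log2 difference of each of the 39 genes, by role, between later and earlier cultures of the dark series (grey) and of the blue series (blue), with 95% intervals. Filled points passed the adjusted p of 0.05: 16 and 12 genes at 14 against 3 irradiations, and 7 and 2 at 42 against 3.

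By 42 irradiations fewer genes stood below their level at 3. In the dark 7 of 39 (17.9%) fell and none rose, a share near the 17.7% of all genes called. Of all genes 8.26% were called lower. The point estimate was below 0 in 33 of 39, with a median of -0.27 (0.02 over all genes). An unadjusted p under 0.05 was reached by 17 genes (43.6%, against 31.6%), and 27 genes lay below without overlap (29.7% of all genes). The 7 were MCM2, MCM5, MCM7, GINS2, RFC4, FEN1 and RRM1. Dark 14 and dark 42 were both compared with the same dark 3 libraries, so the 2 sets of calls are not independent. The summed keratinocyte markers were also lower in dark 42 than in dark 3, and their part in the result was not tested.

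At 42 irradiations in the dark the estimates of the helicase subunits ranged widely, and differences between subunits were not tested. MCM5 measured 110 and 110 CPM in dark 3 and 70.3 and 63.6 in dark 42. It was 1.64-fold lower, a log2 difference of -0.71 ± 0.12 (adjusted p = 0.000469). MCM2 measured 144 and 132 CPM in dark 3, 102 and 133 in dark 14 and 92.5 and 72.3 in dark 42, so that its lowest level came last (log2 difference -0.74 ± 0.16, adjusted p = 0.0052). MCM3 measured 155 and 161 CPM in dark 3, 100 and 122 in dark 14, and 169 and 147 in dark 42. Its dark 42 libraries lay on either side of dark 3, at a log2 difference of 0.00 ± 0.15 (adjusted p = 0.996). FEN1, the nuclease that trims Okazaki fragments, measured 184 and 177 CPM in dark 3 and 133 and 90.9 in dark 42 (-0.69 ± 0.21, adjusted p = 0.0389). UHRF1 had the largest estimate, -1.28 ± 0.46, but at 7.13 and 10.1 against 4.74 and 2.34 CPM it did not pass (adjusted p = 0.0739). TK1 (0.18), POLD1 (0.11), PRIM1 (0.09), CHAF1A (0.04), SLBP (0.04) and MCM3 were the 6 genes above 0, none called.

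In the irradiated series at 42 against 3, MCM5 and MCM7 fell and none rose, 2 of 39 (5.13%). That share was below the 7.78% of all genes called, and 3.39% of all genes were called lower. MCM5 measured 105 and 103 CPM in blue 3 and 77.5 and 67 in blue 42 (-0.53 ± 0.12, adjusted p = 0.00972). MCM7 measured 328 and 330 CPM in blue 3 and 274 and 218 in blue 42 (-0.42 ± 0.11, adjusted p = 0.0271). MCM5 and MCM7 were the 2 genes called lower than at 3 irradiations in both series at both later numbers. The share of all genes with this pattern was not computed. Within a series both later numbers were compared with the same libraries at 3, so these calls are not independent. The estimate was below 0 in 33 of 39, with a median of -0.26 (0.00 over all genes). An unadjusted p under 0.05 was reached by 13 genes (33.3%, against 22% of all genes), and 22 genes lay below without overlap (25.8% of all genes). The test of the difference between the series called none of the 39 (0.435% of all genes; edgeR, smallest adjusted p = 0.211, 0 also by DESeq2). It gave 3 unadjusted p under 0.05 (11.3% of all genes), with a median difference of 0.00. Those 3 were TK1 (-0.56 ± 0.18), UHRF1 (1.60 ± 0.65, adjusted p = 0.375) and MCM2 (0.50 ± 0.23, adjusted p = 0.43). With no filter on low counts UHRF1 was called in this test (1.61, adjusted p = 0.00996). In the dark series 1 gene was called without dark 3 a or without dark 42 b, 2 without dark 3 b, and 11 without dark 14 a, blue 14 b, dark 42 a or blue 42 b. In the blue series 0 were called without blue 3 a, blue 3 b or blue 42 b, 1 without dark 3 a or dark 3 b, 4 without blue 42 a, and 5 without blue 14 a or blue 14 b. With all 14-irradiation libraries left out, 13 were called in the dark and 6 in the blue series.

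From 14 to 42 irradiations the genes stood higher again in most estimates, with little that passed. The 14-irradiation libraries enter both this comparison and that of 14 with 3, so a fall and a later rise are not independent. In the dark 30 of 39 estimates were above 0, with a median of 0.14 (0.01 over all genes), and 1 gene rose (7.04% of all genes called, 1.81% called higher). That gene was CHAF1A, which measured 75.3 and 83.4 CPM in dark 14 and 110 and 109 in dark 42 (0.45 ± 0.12, adjusted p = 0.0275). Its dark 42 libraries were above its 10 others. An unadjusted p under 0.05 was reached by 11 genes (28.2%, against 21.8%), and 16 lay above without overlap (24.8% of all genes). MCM2 went the other way, at -0.52 ± 0.17 (adjusted p = 0.0683). In the blue series 32 of 39 estimates were above 0, with a median of 0.14 (0.00 over all genes). None was called by edgeR (0.241% of all genes) or DESeq2, 6 had an unadjusted p under 0.05 (15.4%, against 12.5%), and 11 lay above without overlap (21.7%). POLD1 had the smallest adjusted p, 0.102, from 4.31 and 1.91 to 8.91 and 7.77 CPM. The difference between the series called none of the 39 (0.0544% of all genes; edgeR, smallest adjusted p = 0.554, 0 by DESeq2) and gave 2 unadjusted p under 0.05 (8.04% of all genes), MCM5 and RFC4. The 1 dark call was lost without dark 3 a, dark 3 b or dark 42 b and in a fit to the compared libraries alone, while 2 or 3 genes were called without blue 3 a, blue 3 b, dark 14 b, blue 14 a, blue 14 b, blue 42 a or blue 42 b. In the blue series 2 genes were called without blue 14 a. Over the 12 contrasts 22 of the 39 genes (56.4%) were called at least once, against 29.6% of all genes. The 17 called in none were MCM4, CDC45, ORC1, GINS3, PCNA, RFC2, RFC5, POLE, PRIM1, TYMS, SLBP, UHRF1, CCNE1, CCNE2, E2F1, DTL and CHAF1B.

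**Figure D4:**
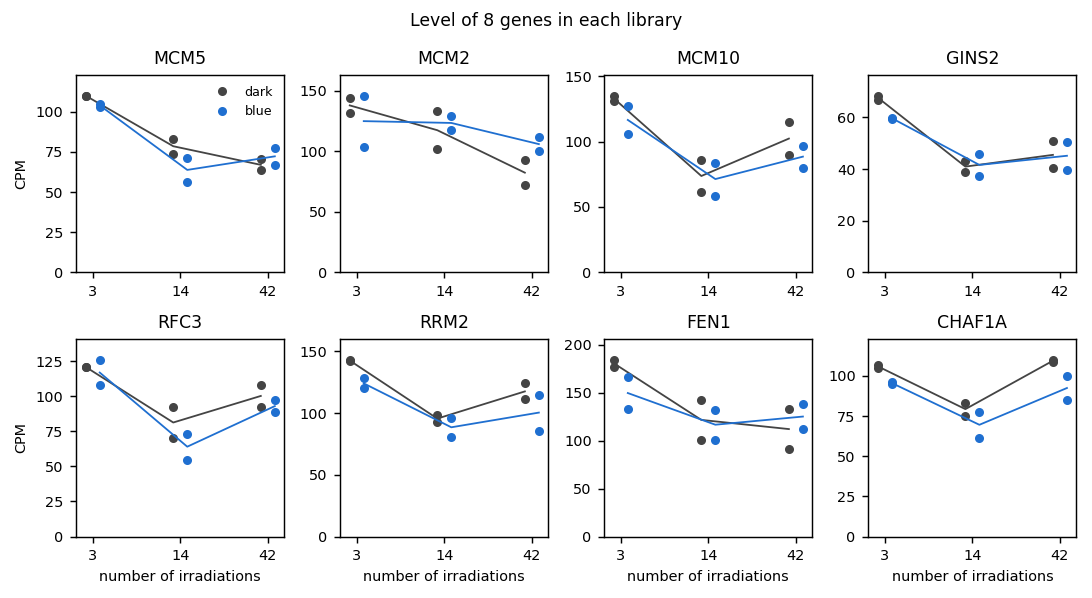
CPM of 8 of the genes in each library at 3, 14 and 42 irradiations (evenly spaced), on linear axes from 0; points are libraries, lines join group means, dark in grey and blue in blue. MCM5 stays low at 42 (63.6 to 77.5 CPM), MCM2 is lowest in dark 42 (72.3 and 92.5), and CHAF1A in dark 42 (109 and 110) is above its other libraries.

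The comparison of blue with dark cells asked how these genes differed between irradiated and dark cells after the same number of sessions. No gene of the 39 was called at 3, 14 or 42 irradiations by edgeR, and none by DESeq2. The share of all genes called was 0.0155% at 3, 0% at 14 and 1.23% at 42. Unadjusted p under 0.05 were reached by 0, 4 and 3 of the 39 genes, against 6.92%, 5.89% and 13.3% of all genes. The smallest adjusted p among the 39 were 0.751, 0.767 and 0.178. The estimate was below 0 in 33 of 39 at 3, in 26 at 14 and in 27 at 42, with medians of -0.14, -0.05 and -0.11, against 0.01, -0.01 and 0.00 over all genes. These are descriptions of the list, with no test. A miss of the threshold does not show that blue and dark cells had equal levels.

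At 3 irradiations the blue libraries lay below the dark ones without overlap in 21 genes (19.9% of all genes did so) and above in 4 (23.7%). The 4 above were LIG1 (0.19), TK1 (0.20), CCNE1 (0.31) and RFC5 (0.05). UHRF1 had the lowest estimate, -0.78 ± 0.44 (adjusted p = 0.771), followed by FEN1 (-0.27), CHAF1B (-0.26) and PRIM1 (-0.26), a primase subunit. The 2 dark 3 libraries were close to each other in these genes, for example RRM1 at 444 and 443 CPM. RRM1 measured 422 and 404 CPM in blue 3, lower in both, and not called.

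At 14 irradiations 7 genes lay below without overlap, a share near the 16.6% of all genes. None of the 39 lay above, as 2133 of the 12878 genes tested did. POLD1 had the largest estimate, -1.10 ± 0.35 (adjusted p = 0.767), from 8.31 and 6.64 CPM in dark 14 to 4.31 and 1.91 in blue 14. ORC1, the largest subunit of the origin recognition complex, measured 17.2 and 17.8 CPM in dark 14 and 14.7 and 11 in blue 14 (-0.41 ± 0.19, adjusted p = 0.834). RFC3 (-0.34) and LIG1 (-0.32) followed, and the highest estimates were small, at GINS1 (0.13), PRIM1 (0.12), POLA1 (0.10) and PCNA (0.09). The median over the 39 genes changed sign with single libraries, from -0.28 without blue 14 a to 0.07 without dark 14 b.

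At 42 irradiations 12 genes lay below without overlap (20.9% of all genes) and 3 above (21.3%). TK1 came nearest to the threshold, with 151 and 160 CPM in dark 42 and 123 and 118 in blue 42. Its log2 difference was -0.36 ± 0.13, with an interval from -0.62 to -0.10 (adjusted p = 0.178). MCM2 was higher in both blue libraries, 112 and 100 CPM against 92.5 and 72.3, at 0.36 ± 0.16 (adjusted p = 0.346). The highest estimate was that of UHRF1, 0.83 ± 0.47 (adjusted p = 0.498), and RFC4 (0.30) and FEN1 (0.16) were also above 0. CCNE2, a second cyclin E, had the lowest estimate, -0.42 ± 0.26 (adjusted p = 0.532), and MCM3 stood at -0.30. SLBP, which binds the stem-loop of replication-dependent histone mRNAs, was lower in both blue libraries at each number. ORC1 was the other of the 39 genes (2 of 39, 5.13%) with this order, which 0.551% of all genes had; the order was noticed after the values were seen. SLBP measured 31.9 and 31.3 CPM in dark 3 and 25.2 and 28.3 in blue 3, then 23.8 and 26.6 against 20.7 and 21, then 31.2 and 33.6 against 29.3 and 24.5. Its log2 differences were -0.24, -0.29 and -0.27, each with an interval that included 0 and adjusted p of 0.752, 0.86 and 0.396. ORC1 measured 23.8 and 22.3 CPM in dark 3 and 19.7 and 19.9 in blue 3, and 20.2 and 19.5 in dark 42 and 18.3 and 18 in blue 42, with adjusted p of 0.806, 0.834 and 0.772 at 3, 14 and 42. The median over the 39 ran from -0.20 without blue 42 a to 0.01 without blue 42 b.

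**Figure D5:**
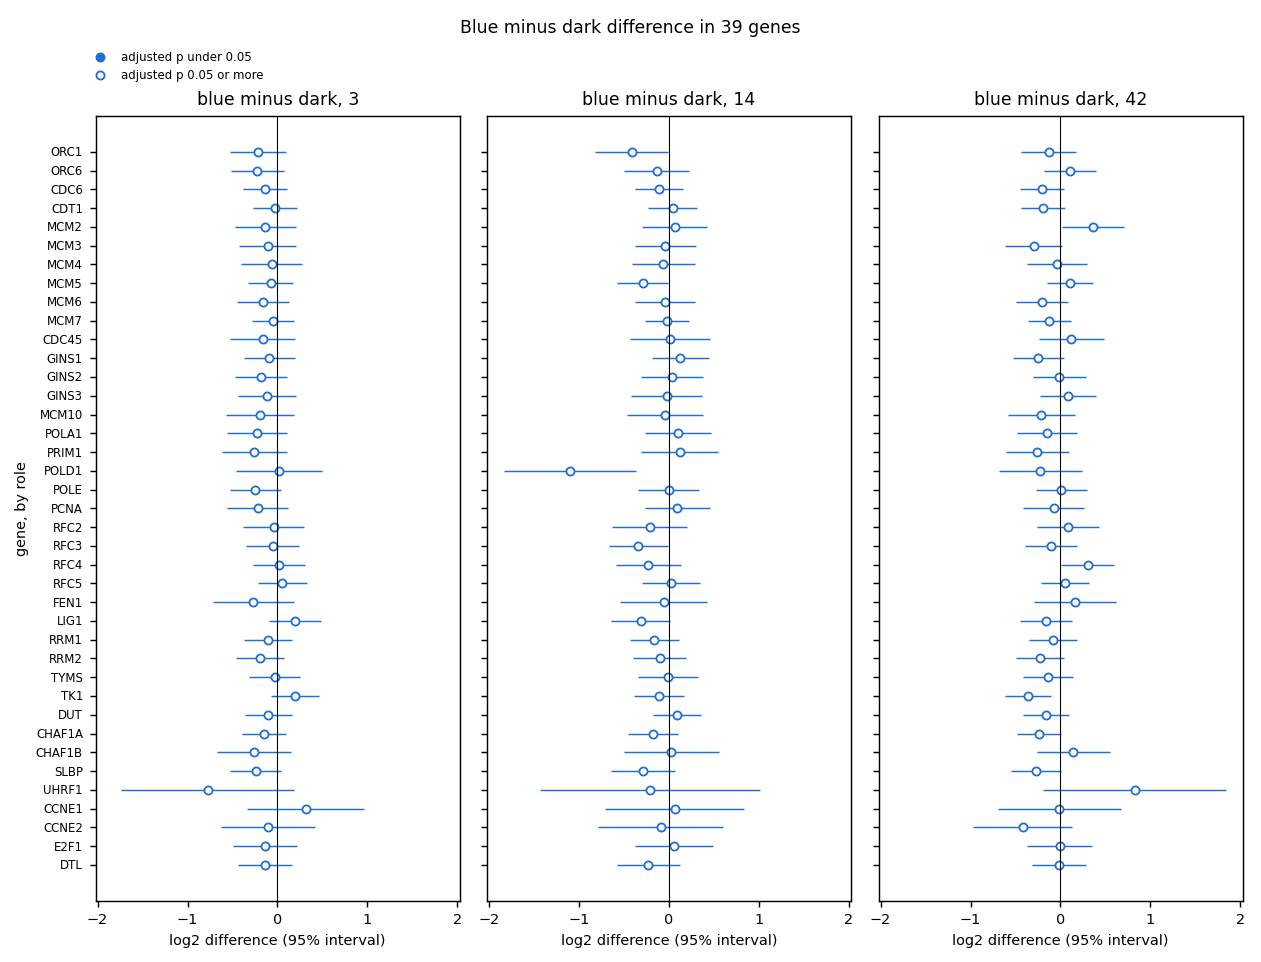
Log2 difference blue minus dark of each of the 39 genes, by role, at 3, 14 and 42 irradiations, with 95% intervals. No point passed the adjusted p of 0.05. POLD1 at 14 (-1.10) and TK1 at 42 (-0.36) are among the 7 whose intervals lie to one side of 0.

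Other genes of the same pathway were read from lists chosen with earlier results of these data known. Of 33 tested further replication factors, 7 (21.2%) fell and none rose in dark 14 against dark 3, where 12.7% of all genes were called and 4.61% were called lower; the median of the list was -0.27. They included TIPIN (-0.79, adjusted p = 0.00171) and TIMELESS (-0.45, adjusted p = 0.025), partners that protect the fork, DBF4 (-0.54, adjusted p = 0.0115), which activates the CDC7 kinase, and POLE4 (-0.74, adjusted p = 0.00262), a small subunit of polymerase epsilon. In blue 14 against blue 3, 4 (12.1%, against 6.22% of all genes called) fell and none rose: DBF4, TIMELESS, POLE3 and DONSON. In dark 42 against dark 3 the share called, 18.2%, was near the 17.7% of all genes. There 5 fell, including GINS4 (-0.58, adjusted p = 0.0141), the subunit of the GINS complex outside the 39, DONSON (-0.54, adjusted p = 0.0149) and POLE3 (-0.47, adjusted p = 0.017), and RFC1, the largest clamp-loader subunit, rose by 0.54 (adjusted p = 0.00698). In blue 42 against blue 3, POLE3 fell (-0.49, adjusted p = 0.0264), 3.03% of the list against 7.78% of all genes. In dark 42 against dark 14, TIPIN (0.67, adjusted p = 0.00753) and DBF4 (0.61, adjusted p = 0.00762) were called higher, 6.06% of the list against 7.04% of all genes; this comparison uses the same dark 14 libraries as their fall.

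Among 23 genes of the RB-E2F pathway and G1 cyclins, 3 fell (CDK4, CDK6 and CCNA2) and 2 rose, among them TFDP2, in dark 14 against dark 3 (21.7% called, against 12.7% of all genes). In dark 42 against dark 3, 6 fell and 1, TFDP2, rose (30.4%, against 17.7%). CDK4 (-0.75, adjusted p = 6e-04) and CDK2 (-0.65, adjusted p = 0.000749) fell, as did CKS1B (-0.80, adjusted p = 0.000424), a small partner of these kinases. The blue series had fewer calls. In blue 14 against blue 3, RBL1, a relative of RB, fell (-0.46, adjusted p = 0.0377) and none rose (4.35%, against 6.22%). In blue 42 against blue 3 none fell, and CCND2, a D-type cyclin (0.69, adjusted p = 0.000662), and TFDP2 (0.44, adjusted p = 0.0355) rose (8.7%, against 7.78%). CCND2 was also called higher in blue 42 than in blue 14 (0.71, adjusted p = 0.00828). In dark 42 against dark 14, CDK2 (-0.70) and CKS1B (-0.76) fell and CCNA2 (0.47) rose (13%, against 7.04%). CKS1B was the gene of this list called higher in blue 42 than in dark 42 (0.64 ± 0.14, adjusted p = 0.0196; 4.35%, against 1.23%).

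Of 6 tested inhibitors of cyclin-dependent kinases, all estimates in dark 14 against dark 3 were above 0 and 2 rose (33.3%, against 12.7% of all genes called). CDKN1A, which encodes p21, rose by 1.14 ± 0.16 (adjusted p = 0.000288) in dark 14, by 0.58 ± 0.17 (adjusted p = 0.0464) in blue 14 and by 0.70 ± 0.16 (adjusted p = 0.00615) in dark 42, each against 3 irradiations of its series. CDKN2B rose in dark 14 (0.68, adjusted p = 0.0173) and CDKN1B in blue 14 (0.66, adjusted p = 0.0253). The share of the list called was 33.3% in blue 14 against blue 3 (6.22% of all genes). In dark 42 against dark 3 it was 16.7%, near the 17.7% of all genes. CDKN2D was lower in dark 42 than in dark 14 (-1.02, adjusted p = 0.0196), 16.7% of the list against 7.04% of all genes. In blue 42 against blue 3 none of the 6 was called (7.78% of all genes). Their median there was -0.05, while the median of the 39 replication genes was -0.26. In dark 14, blue 14 and dark 42, where CDKN1A was called higher, the medians of the 39 genes were -0.43, -0.40 and -0.27. A link between the 2 was not tested. Marker sums of other cell types also moved in these groups. The neuronal, fibroblast, leukocyte and endothelial sums were higher in dark 14 than in dark 3, the endothelial sum at 3.07 to 5.16 against 0.634 to 1.58 CPM. In blue 14 the fibroblast sum was higher than in blue 3 (9.77 to 11 against 8.08 to 9.07 CPM), as were the endothelial and leukocyte sums, and the neuronal sum was lower (44.4 to 46 against 57.4 to 74.6 CPM). The part of these in the result was not tested.

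Genes of G2 and mitosis were read the same way. Of 24, 5 fell and none rose in dark 14 against dark 3 (20.8%, against 12.7% of all genes called; median -0.30). They included BUB1B, a spindle checkpoint kinase (-0.64, adjusted p = 0.00573), HMMR, BIRC5 and KIF23. HMMR was the 1 gene called in blue 14 against blue 3 (-0.54, adjusted p = 0.0436), a share of 4.17% against 6.22% of all genes. In dark 42 against dark 3, 5 fell (20.8%, near the 17.7% of all genes), including UBE2C (-0.99, adjusted p = 0.000655) and CDC20 (-0.92, adjusted p = 0.00435), which act in mitotic exit, and the mitotic kinases AURKB and PLK1. In dark 42 against dark 14, TTK (0.53) and BUB1B (0.55) rose and CDC25C (-0.84) and UBE2C (-0.65) fell (16.7%, against 7.04%). None was called in blue 42 against blue 3 (7.78% of all genes). UBE2C was higher in blue 42 than in dark 42 (0.73 ± 0.16, adjusted p = 0.0376; 4.17%, against 1.23%). At 42 none of the 33 further replication factors or the 6 inhibitors was called between blue and dark. At 3 and 14 no gene of any of these lists was, where 0.0155% and 0% of all genes were called.

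Genes with and without a match to the 4 E2F octamers in the promoter window were set side by side. Other forms of E2F site were not searched. In dark 14 against dark 3 the 18 genes with a match had a median of -0.43, with 9 called, and the 18 without had a median of -0.42, with 6 called. In blue 14 against blue 3 the medians were -0.32, with 4 called, and -0.42, with 7 called. CDC6, MCM7 and RFC3, printed above with matches, and RRM2, printed without, were among the 8 genes called in both series, of which 7 had a window and 3 a match. This split was made after the drift was known and carries no test.

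All 39 genes matched protein-coding genes of GENCODE release 29 on GRCh38 by identifier. Of these, 13 overlapped another protein-coding gene, among them MCM7, GINS2, FEN1, RRM2 and CHAF1A. For 7 genes a pseudogene bears their name: 8 for DUT, 3 each for PCNA and RRM2, 2 for TYMS, and 1 each for RFC3, RFC5 and FEN1. The strand setting of the counting was not given in the sources used here, so reads of these genes could be shared with the overlapping gene or the copy. MCM5, MCM10, CDC6 and MCM6 overlapped no annotated gene and had no such pseudogene.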

How the data were processed

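RNA of 12 libraries of HaCaT cells was read as 3′ tags. The authors deposited raw counts per gene for all 12 libraries in 1 table; per the submitters' processing notes, STAR, featureCounts and the GRCh38 build were used, and versions and strand setting were not given in the sources used here. Genes passing filterByExpr of edgeR 4.0.16 (R 4.3.3, minimum count 10) were scaled by TMM and fitted by the robust quasi-likelihood method with 1 mean for each of 6 groups, all 12 libraries sharing the dispersion (6 residual degrees of freedom, common biological coefficient of variation 9.41%). P-values of 12 contrasts were adjusted by Benjamini-Hochberg over all 12878 genes tested, in each contrast, and called under 0.05. Levels are TMM-scaled CPM. The standard error is the difference divided by the root of the F statistic, and intervals are 95%. Library totals ran from 2073160 to 8183941 counts, which sets the counting error. All members are named; those called in any contrast, and the 4 with the largest estimates each way between blue and dark, are described with their values. Genes of other lists are named only where called, at most 4 per list and contrast by adjusted p. The 39 members and all lists were chosen with earlier results of these data known. Alternatives were RLE scaling, no filter, a filter at 5 CPM in 2 libraries, DESeq2 1.42.0, a fit without robust estimation, only the libraries compared, the replicate letter as a block, each library left out, and, chosen after seeing the data, all 14-irradiation libraries left out. Promoter windows came from RefSeq tables on GRCh38.p14, 1 window per gene. The value of 1 leukocyte marker is not reported here.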

Additional observations from a re-analysis of the deposited data

How the results depend on the processing

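No alternative moved the median of the 39 genes to the other side of 0 in any comparison of 14 or 42 with 3 irradiations, and every alternative called 0 of the 39 genes between blue and dark cells. Counts of called genes moved more. With only the compared libraries in the fit, 25 genes were called in dark 14 against dark 3, 12 in dark 42 against dark 3, 0 in dark 42 against dark 14, 4 in blue 14 against blue 3 and 7 in blue 42 against blue 3. With no filter the counts were 14 in dark 42 against dark 3, 4 in dark 42 against dark 14, 7 in blue 42 against blue 3, 2 in blue 42 against blue 14, and 1 in the difference of the light effects at 42 and 3. Without the 14-irradiation libraries they were 13 in dark 42 and 6 in blue 42, each against 3. The causes were not tested. Leaving out 1 library at a time gave 1 to 20 genes in dark 14 against dark 3, 1 to 11 in dark 42 against dark 3, 0 to 3 in dark 42 against dark 14, 0 to 14 in blue 14 against blue 3, 0 to 5 in blue 42 against blue 3 and 0 to 2 in blue 42 against blue 14; the lone library of a group was assumed to vary like the other groups. Over all genes, the blue against dark counts ran from 0 to 54 at 3 (main 2), from 0 to 14 at 14 (main 0) and from 24 to 420 at 42 (main 158). For drift they ran from 336 to 2651 in dark 14 against 3 (main 1638), 765 to 2585 in dark 42 against 3 (2284), 284 to 1270 in dark 42 against 14 (907), 110 to 1348 in blue 14 against 3 (801), 258 to 1417 in blue 42 against 3 (1002) and 7 to 298 in blue 42 against 14 (31), and for differences of light effects from 1 to 115 (14 and 3, main 5), 2 to 288 (42 and 3, main 56) and 2 to 80 (42 and 14, main 7). Of 15 correlations of same-lettered deviations between groups, 3 passed 0.1 (range -0.25 to 0.30). The highest was between dark 42 and blue 42, where the mean of the 39 genes in b minus a was -0.205 and -0.231. Whether the letters pair the libraries is not stated in the labels and was not tested. With the letter as a block 17, 8, 8 and 2 genes were called in dark 14, dark 42, blue 14 and blue 42 against 3. The shallow blue 14 b limits what can be seen in POLD1 and CCNE1.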
